A study of Mus musculus with 12 samples.

Results

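The genes described here encode the proteins of the cytosolic ribosome, the particle that translates nuclear mRNA. They are the protein-coding genes of the mouse count table whose symbol is Rpl (large subunit) or Rps (small subunit) followed by a number and, for some, a short suffix. The rule found 79 of the 46517 Ensembl genes in the table, 48 Rpl and 31 Rps genes spread over 19 chromosomes. A filter on low counts was passed by 76 of the 79. The 3 others are tissue-restricted copies: Rpl10l had no count in any library, Rpl39l had 2 counts in tumor-derived library 2 and none elsewhere, and Rpl3l had 6 counts in normal library 4, 35, 4, 5 and 13 in the tumor-derived libraries and none in the tumor GNPs. RNA was sequenced from cells of the mouse cerebellum in medulloblastoma, a cancer that grows from granule neuron progenitors (GNPs), the dividing precursors of cerebellar granule neurons. There were 4 libraries each of normal astrocytes, of astrocytes taken from tumor and of tumor GNPs. The design sets the tumor-derived astrocytes against both other groups.

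The normal and the tumor-derived astrocyte libraries carry the strain label C57BL/6. For the GNP libraries 1 to 4 the strain label reads C57BL/7, C57BL/8, C57BL/9 and C57BL/10, a run that rises by 1 per line, so the GNP strain is treated here as not settled. The labels name no genotype, tumor driver, Cre or treatment. A deposited sample sheet calls the normal astrocytes adult and calls the first GNP entry cultured, whereas the labels give laser capture from frozen sections for every library. Age, culture and cell type therefore cannot be told apart where they follow the groups. No label ties a library to an animal, so p-values measure the spread between these libraries, which may be partly technical and would be too small if captured cells shared an animal.

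Ribosomal proteins are made in matched amounts because each ribosome holds a single copy of nearly every one. Most of their mRNAs begin with a stretch of pyrimidines (a 5′ terminal oligopyrimidine tract, TOP), through which mTOR signalling sets their translation, and several family members have near-copies elsewhere in the genome. Growing and dividing cells are known for a large pool of ribosomal protein mRNA.

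Library totals were 8154401 to 12626596 counts. GNP libraries 1, 2 and 4 were nearly the same library: on genes with 10 to 49 counts, chi-square per degree of freedom was 1.21 to 1.59 within this trio and 4.17 to 14.3 in the other pairs of 1 group. On all genes with 10 or more counts library 1 stood further off, at 7.52 to library 2 and 6.59 to library 4. Libraries 2 and 4 were at 1.43, and the other pairs of 1 group at 24.0 to 184. The trio counts as 1 sample in each GNP mean ± SD (n = 2), and in comparisons with GNPs a gene is called higher or lower only if it passed both a fit of all 12 libraries and a fit with the trio summed. The 20 astrocyte markers summed to 9576 to 16647 CPM (each library's counts rescaled to a common total, with TMM factors) in normal libraries, 2618 to 7120 CPM in tumor-derived libraries and 639 to 1031 CPM in GNP libraries. The list of 16 granule progenitor and cell cycle markers summed to 154 to 280 CPM in normal libraries, where Atoh1 and Ccnb1 were at 0 counts, while tumor-derived libraries had 2296 to 3742 CPM and GNP libraries 3111 to 3341 CPM. Purkinje cell and interneuron markers ran the other way, at 4979 to 19158, 1168 to 2333 and 189 to 221 CPM in the same order of groups. So did granule neuron markers, at 1990 to 5074, 1117 to 2036 and 303 to 470.0 CPM with overlap of the astrocyte groups, and endothelial and blood markers, at 963 to 2589, 250 to 393 and 0.623 to 4.54 CPM. The sum of oligodendrocyte markers also fell, at 509 to 1080, 268 to 392 and 50.7 to 65.2 CPM. Between the astrocyte groups its genes were split. Of 10 tested, edgeR called 3 up and 3 down from normal to tumor-derived libraries, with a median log2 fold change of -0.07. Microglia and macrophage markers were highest in tumor-derived libraries, at 859 to 1092 CPM, against 201 to 624 CPM in normal and 6.54 to 21.7 CPM in GNP libraries. Of the 14 tested, 5 were called higher than in normal astrocytes and 10 higher than in GNPs (edgeR), next to 20.7 and 7.84% of all genes. The part of these other cell types in the ribosomal protein values was not tested.

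Ribosomal protein genes took a far larger part of the RNA in tumor-derived astrocytes than in normal ones. Their share of all counts was 7.64, 8.83, 6.04 and 5.49% in normal libraries 1 to 4, 22.5, 20.8, 19.6 and 22.2% in tumor-derived libraries 1 to 4, and 23.5, 23.6, 20.3 and 23.2% in GNP libraries 1 to 4. Every tumor-derived library lay above every normal one, and the tumor-derived and GNP ranges overlapped. The means were 7.00 ± 1.52% (SD, n = 4), 21.3 ± 1.37% (SD, n = 4) and 21.9 ± 2.24% (SD, n = 2). Among the 100 genes with the most counts, 14 to 29 were ribosomal protein genes in the normal libraries, 40 to 53 in the tumor-derived and 52 to 57 in the GNP libraries. Small-subunit genes supplied 42.4 to 45.2% of the ribosomal protein counts of normal libraries, 40.8 to 46.7% of tumor-derived and 46.5 to 48.1% of GNP libraries, so the balance between the subunits overlapped between the astrocyte groups. The progenitor and cell cycle markers were also higher in the tumor-derived than in the normal libraries, with Mki67 at 656 to 986 CPM against 0 to 0.908 CPM. Of the 15 tested, 12 were called higher (edgeR), next to 20.7% of all genes. The part of these markers in the ribosomal protein share was not tested, and in bulk libraries fewer cells of a type and less RNA per cell cannot be told apart.

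**Figure D1:**
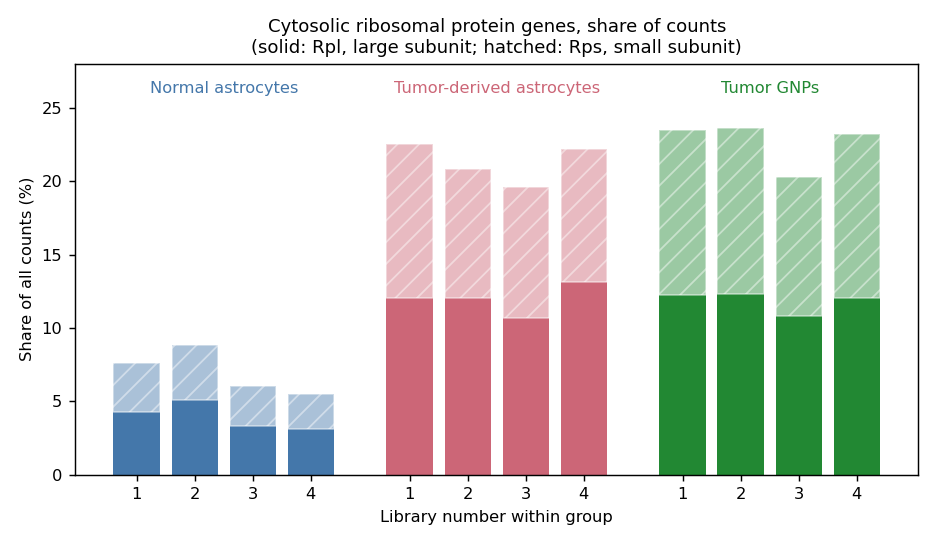
Share of all counts (%, vertical axis) taken by the 79 ribosomal protein genes in each of the 12 libraries, 1 bar per library, solid for Rpl and hatched for Rps genes. Normal astrocytes stand at 5.49 to 8.83%, tumor-derived astrocytes at 19.6 to 22.5% and tumor GNPs at 20.3 to 23.6%.

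Gene by gene, the tumor-derived libraries had 65 of the 76 tested members higher than the normal ones and 1 lower (edgeR quasi-likelihood test, Benjamini-Hochberg adjusted p under 0.05), against 20.7% called higher and 19.3% called lower of all 14393 genes tested. The median log2 fold change was 1.65 over the members and 0.03 over all genes, with members from -2.47 to 4.05. Large-subunit genes gave 38 higher and 1 lower of 45, with a median of 1.60. Small-subunit genes gave 27 higher of 31 with a median of 1.71, and 10 members of both subunits were not called. A log2 fold change of 1 or more was reached by 59 of the called members and of 2 or more by 24. Only the call of Rps25 (log2 0.77 ± 0.27 SE, adjusted p = 0.0373, edgeR) was lost among the members' calls of this comparison when the GNP trio was summed in the shared fit, at adjusted p = 0.059. These counts were 63 to 67 higher over the fits that left out 1 library.

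The members with the highest fold changes came from both subunits. Rpl29, a basic protein on the surface of the large subunit that mice can live without, stood at 81.2, 76, 47.4 and 46.4 CPM in normal libraries 1 to 4, at 1375, 1490, 607 and 687 CPM in tumor-derived libraries and at 1470, 986, 838 and 1009 CPM in GNPs. Each tumor-derived library was several times above the highest normal one, and libraries 1 and 2 were above 3 and 4. Its log2 fold change over normal astrocytes was 4.05 ± 0.36 (SE, adjusted p = 3.57e-06, edgeR). Rpl41, the shortest ribosomal protein, had 1658, 1948, 1217 and 1214 CPM in normal, 9530, 10568, 8876 and 12242 CPM in tumor-derived and 5251, 5317, 4605 and 4981 CPM in GNP libraries, with no overlap between the 3 groups, for a log2 fold change of 2.77 ± 0.18 (SE, adjusted p = 4.28e-07, edgeR). Log2 fold changes of 2.53 to 2.73 were also seen for Rps2, which lines the mRNA entry side, Rpl10a, the protein of the mobile L1 stalk, Rpl35, at the mouth of the peptide exit tunnel, Rpl15, of the large subunit, and Rps18, in the head of the small subunit.

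**Figure D2:**
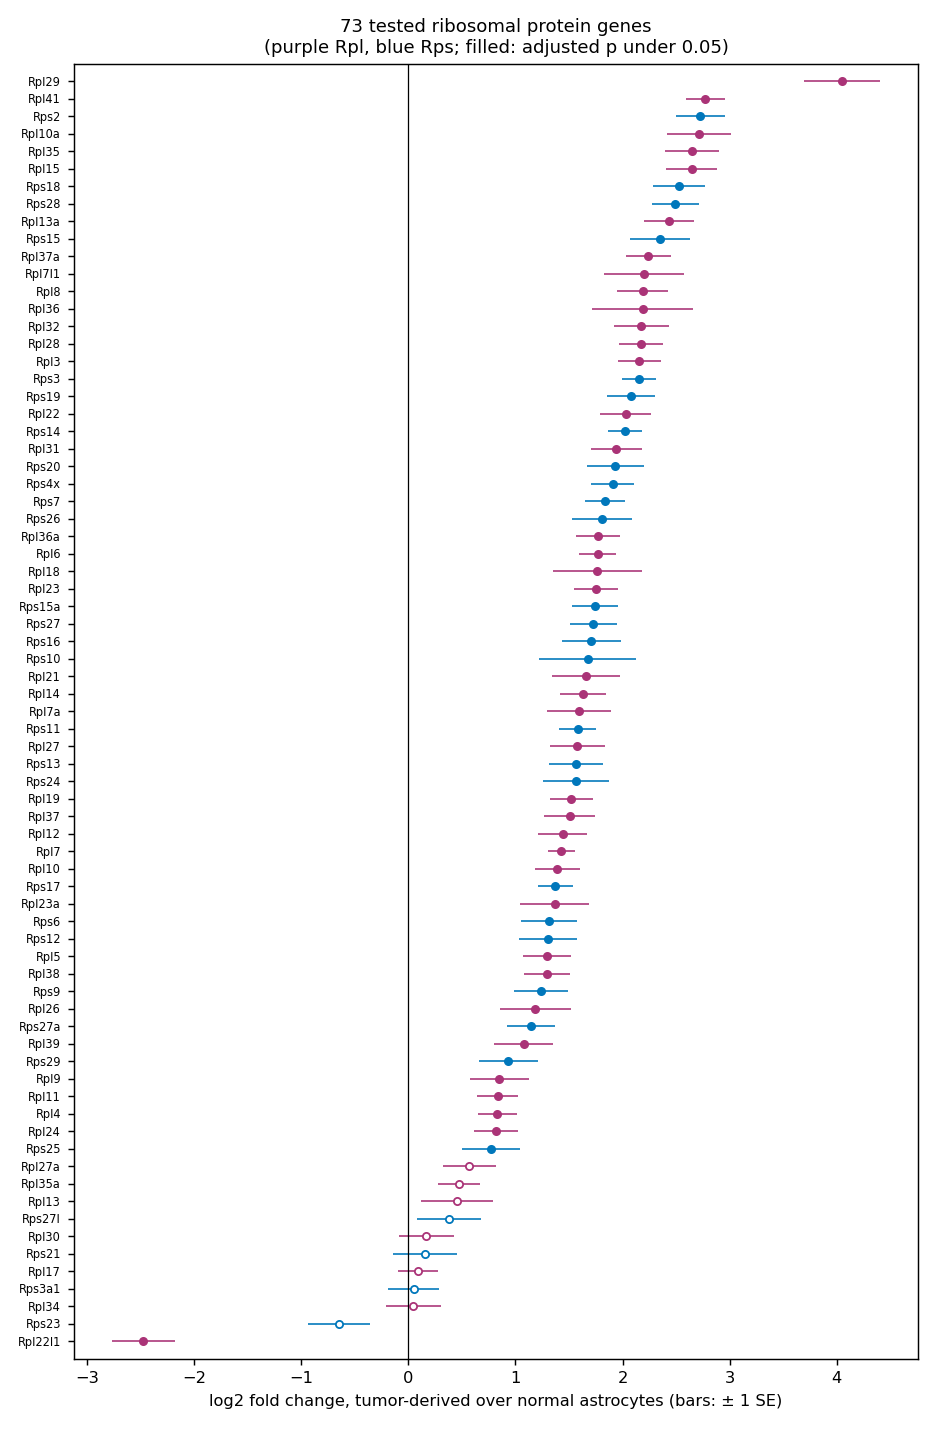
Log2 fold change of tumor-derived over normal astrocytes (horizontal axis) for 73 of the 76 tested ribosomal protein genes, sorted, with bars of 1 SE, purple for Rpl and blue for Rps genes, and filled points for an adjusted p under 0.05. The values run from -2.47 for Rpl22l1 to 4.05 for Rpl29, with 62 of those drawn called higher and 1 called lower.

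A single member fell, Rpl22l1, the paralog of Rpl22 that is known in the mouse to be held down by Rpl22 protein. It stood at 113, 89.1, 129 and 99.6 CPM in normal libraries 1 to 4, at 29.7, 12.9, 16.2 and 18.8 CPM in tumor-derived libraries and at 66.0, 63.6, 59.3 and 74.0 CPM in GNPs. No library of any group overlapped another group, and the fall from normal to tumor-derived astrocytes was -2.47 ± 0.29 (log2 ± SE, adjusted p = 3.47e-05, edgeR). The 10 members with no call were Rps23, Rpl34, Rps3a1, Rpl17, Rps21, Rpl30, Rps27l, Rpl13, Rpl35a and Rpl27a, with log2 fold changes from -0.65 to 0.57. Rps23, which shapes the decoding centre, had 849, 737, 852 and 535 CPM in normal and 841, 368, 363 and 322 CPM in tumor-derived libraries. Tumor-derived library 1 lay among the normal values and the other 3 below all of them (log2 -0.65 ± 0.29 SE, adjusted p = 0.0897, edgeR). Without that library Rps23 passed the test, at log2 -1.05 and adjusted p = 0.00193 (edgeR), which made 2 members called lower. Rps3a1, a small-subunit protein at the mRNA exit, had 1102, 800, 1018 and 654 CPM in normal and 1401, 643, 897 and 760 CPM in tumor-derived libraries, in overlapping ranges (log2 0.05 ± 0.24 SE, adjusted p = 0.885, edgeR). Rpl34 and Rpl30, both of the large subunit, were at 0.05 ± 0.25 and 0.17 ± 0.26 (log2 ± SE, adjusted p = 0.9 and 0.637, edgeR).

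When library size was set to the summed counts of the members, the test asked which genes moved against the ribosomal protein pool as a whole. In tumor-derived against normal astrocytes 11 members gained share of the pool and 26 lost share (edgeR, adjusted p under 0.05), against 7.01 and 55.8% of all genes on the same scale. Among those that gained most were Rpl29 (log2 2.22 ± 0.29 SE) and Rpl10a (0.93 ± 0.20). Those that lost most were Rpl22l1 (-4.39 ± 0.37), Rps23 (-2.51 ± 0.31), Rpl34 (-1.84 ± 0.29), Rps3a1 (-1.81 ± 0.27) and Rpl17 (-1.78 ± 0.18), the last a protein at the exit tunnel. All 10 members that were not called against all RNA lost share of the pool. This follows from the scale: the pool grew from a mean of 7.00% to 21.3% of counts, so a member that stayed level must lose share. When the scale was the median of the members' ratios in place of their sum, 20 members gained share.

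**Figure D3:**
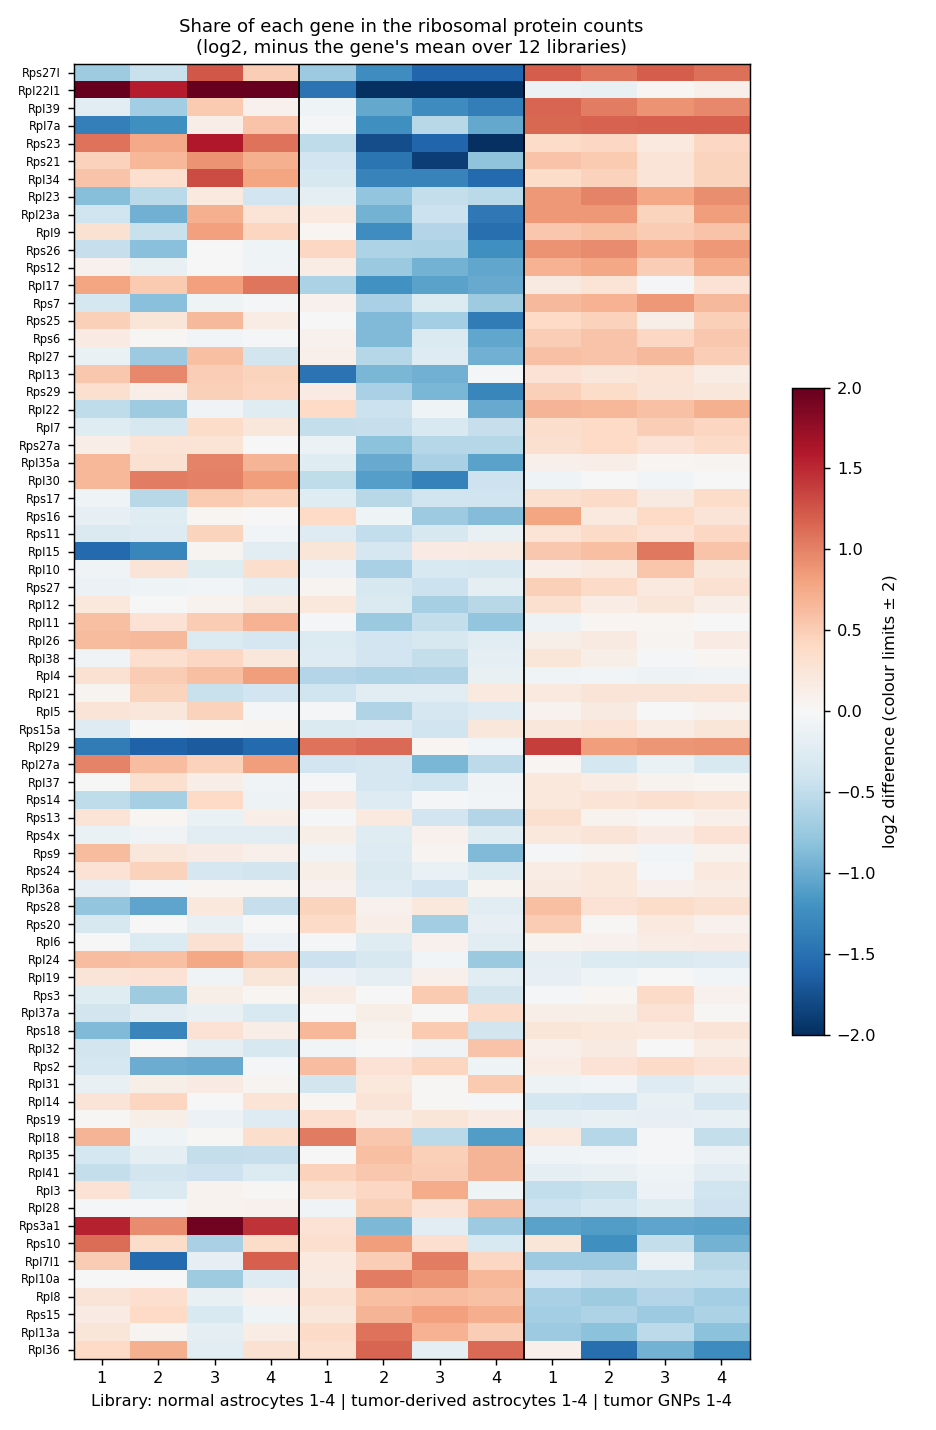
Share of 73 of the 76 tested members, 1 per row, in the ribosomal protein counts of a library, as log2 difference from that gene's mean over the 12 libraries (colour, limits of 2 either way), with genes ordered by the fold change of tumor-derived astrocytes over GNPs. Blocks of colour mark the groups: Rpl22l1 is high in the 4 normal libraries, Rpl29 is low in them, and Rps3a1 is low in the 4 GNP libraries.

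Tumor-derived astrocytes and tumor GNPs overlapped in the share of raw counts on ribosomal protein genes, but not on the TMM scale used for the levels here. There the members summed to 222422 to 269120 CPM in tumor-derived and 171508 to 212470 CPM in GNP libraries, so every tumor-derived library lay above every GNP library. Both fits called 9 of the 76 higher on the tumor-derived side and 6 lower (edgeR), and 61 were not called, against 7.84 and 4.36% of all genes. The median log2 difference was -0.05 over the members and 0.08 over all genes. Among the higher were Rpl13a, Rpl8, Rps15, Rpl10a, Rpl36, Rpl28, Rpl3 and Rpl41, and the lower were Rps27l, Rpl22l1, Rpl39, Rpl7a, Rps23 and Rpl23. These counts rest on few libraries: without GNP library 3 they were 0 higher and 1 lower (8 and 15 at an unadjusted p under 0.05, edgeR), without tumor-derived library 2 or 4 they were 2 and 2, without library 3 they were 5 and 2, and without library 1 the lower count was 13. With the fit of all 12 libraries alone they were 14 and 15, and with library totals as the only scale 4 and 14.

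Rpl13a, a large-subunit protein that can leave the ribosome and silence inflammatory mRNAs, had the lowest adjusted p among the members in the fit of all 12 libraries. It stood at 3365, 3187, 1736 and 1993 CPM in normal, 11032, 18893, 12482 and 13181 CPM in tumor-derived and 4449, 4111, 4135 and 4030 CPM in GNP libraries. The groups did not overlap, and the log2 difference between tumor-derived astrocytes and GNPs was 1.73 ± 0.23 (SE, adjusted p = 0.000153, or 0.00927 with the trio summed, edgeR). Rpl8, close to the peptidyl transferase centre, was at 9957, 12879, 11333 and 13371 CPM in tumor-derived and 4460, 4210, 3764 and 4224 CPM in GNP libraries (log2 1.51 ± 0.23 SE, adjusted p = 0.000454, or 0.0164 with the trio summed, edgeR). Rps15, in the head of the small subunit, had 12098, 17400, 16614 and 18848 CPM against 5609, 5752, 4352 and 5560 CPM, again with every tumor-derived library above every GNP library (log2 1.61 ± 0.27 SE, adjusted p = 0.000833, or 0.0212, edgeR). Rpl36 was less even: 2231, 4229, 1425 and 4311 CPM in tumor-derived libraries overlapped 1678, 539, 653 and 626 CPM in GNPs through GNP library 1. That library exceeded the mean of libraries 2 and 4 by 2.88 times for Rpl36 and 2.56 times for Rps10, although the 3 were otherwise nearly the same, and 5 of 84 cytosolic ribosomal protein genes compared differed by over 1.5 times there.

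Among the members lower in tumor-derived astrocytes than in GNPs, Rpl39, which lines the exit tunnel, stood at 504, 276, 204 and 227 CPM against 1040, 934, 702 and 873 CPM in GNPs and 155, 120, 180 and 120 CPM in normal astrocytes. The 3 groups were ordered without overlap, and the log2 difference to GNPs was -1.55 ± 0.28 (SE, adjusted p = 0.00123, or 0.0207 with the trio summed, edgeR). Rpl7a, also of the large subunit, followed the same order with 412, 192, 264 and 231 CPM in tumor-derived, 824, 824, 686 and 814 CPM in GNP and 55.1, 65.8, 109 and 133 CPM in normal libraries, and a log2 difference to GNPs of -1.52 ± 0.30 (SE, adjusted p = 0.00214, or 0.0276, edgeR). Rpl23, known to bind Mdm2, had 1716, 1178, 1272 and 1474 CPM against 3095, 3288, 2319 and 3102 CPM in GNPs (log2 -1.07 ± 0.20 SE, adjusted p = 0.0015, or 0.0291, edgeR). Against the pool, tumor-derived astrocytes had 6 members above GNPs and 13 below, next to 5.12 and 5.15% of all genes, with Rpl36 (log2 1.47 ± 0.38 SE) and Rps27l (-2.39 ± 0.39) at the ends. Those pool counts were 0 and 0 without GNP library 3 (8 and 17 at an unadjusted p under 0.05, edgeR), 3 higher without tumor-derived library 2 or 4, and 2, 2 and 3 lower without tumor-derived libraries 2, 3 and 4.

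GNPs also exceeded normal astrocytes in most members. With edgeR, 62 of the 76 were higher in both fits and 0 lower, against 13.9 and 13.4% of all genes, with medians of 1.67 over the members and -0.03 over all genes. DESeq2 called 1 lower, and 1 was lower at an unadjusted p under 0.05 or without normal library 4, tumor-derived library 1 or GNP library 1. That member, Rps3a1, was at 475, 448, 384 and 456 CPM in GNPs, below all normal libraries. Its log2 difference was -1.02 ± 0.24 (SE, edgeR), with an adjusted p of 0.00399 in the fit of all 12 libraries and 0.0534 with the trio summed. The highest rise was again that of Rpl29 (log2 4.10 ± 0.36 SE, adjusted p = 1.55e-06, or 3.89e-05, edgeR), followed by Rpl7a (3.11 ± 0.32), Rpl15 (2.94 ± 0.24) and Rpl23 (2.82 ± 0.21). Against the pool 8 members were higher and 9 lower in GNPs than in normal astrocytes, next to 5.08 and 34.4% of all genes, from -2.58 ± 0.28 for Rps3a1 to 2.58 ± 0.29 for Rpl29 (log2 ± SE). Without GNP library 3 these were 2 and 2. The higher count was 5 without normal library 1 or 2 or tumor-derived library 2 or 3, and 13 without normal library 3. Both comparisons with normal astrocytes use the same 4 normal libraries.

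Rpl22 and its paralog Rpl22l1 moved in opposite directions between the astrocyte groups. Rpl22, a large-subunit protein that mice can live without, was at 193, 183, 184 and 147 CPM in normal, 1083, 645, 703 and 453 CPM in tumor-derived and 1150, 1114, 866 and 1123 CPM in GNP libraries. Normal astrocytes lay below both other groups, and Rpl22 rose by 2.03 ± 0.24 (log2 ± SE, adjusted p = 3.67e-05, edgeR) in tumor-derived astrocytes while Rpl22l1 fell. Per 100 counts of Rpl22 there were 58.5, 48.7, 70.3 and 68.0 counts of Rpl22l1 in the normal libraries, 2.74, 2.0, 2.30 and 4.16 in the tumor-derived and 5.74, 5.71, 6.85 and 6.59 in the GNP libraries. Counts are not scaled by length, so this ratio compares libraries and not the levels of the paralogs. Its 3 ranges did not overlap.

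Rps27l, a copy of Rps27 known as a p53 target, stood at 47.8, 62.4, 130 and 69.6 CPM in normal, 141, 104, 71.1 and 86.5 CPM in tumor-derived and 473, 423, 381 and 424 CPM in GNP libraries. The astrocyte groups overlapped (log2 0.38 ± 0.30 SE, adjusted p = 0.334, edgeR), and GNPs lay above both, so that tumor-derived astrocytes were lower than GNPs by -2.08 ± 0.31 (log2 ± SE, adjusted p = 0.000366, or 0.00821 with the trio summed, edgeR). Rps27 itself had 577, 639, 420 and 346 CPM, 1937, 1569, 1263 and 1791 CPM, and 2259, 2080, 1508 and 1935 CPM in the same order of groups, higher in tumor-derived than in normal astrocytes by 1.73 ± 0.22 (log2 ± SE, adjusted p = 7.15e-05, edgeR) and overlapping GNPs. Rpl7l1, a copy of Rpl7 that works in ribosome assembly, had 77, 20, 33.9 and 78 CPM in normal, 184, 239, 300 and 237 CPM in tumor-derived and 84.8, 83.6, 104 and 92.1 CPM in GNP libraries. Tumor-derived libraries stood above all others, with a log2 of 2.20 ± 0.38 over normal astrocytes (SE, adjusted p = 0.000609, edgeR) and 1.40 ± 0.37 over GNPs, where the adjusted p was 0.0114 in the fit of all 12 libraries and 0.129 with the trio summed (edgeR). Rpl7 was highest in GNPs, at 5359 to 6133 CPM, against 3880 to 4353 CPM in tumor-derived and 1335 to 1642 CPM in normal astrocytes. Rps4x, the X-linked copy of a small-subunit gene, was at 1351 to 2567 CPM in normal, 6572 to 8064 CPM in tumor-derived and 5836 to 7599 CPM in GNP libraries (log2 1.91 ± 0.20 SE over normal astrocytes, adjusted p = 1.69e-05, edgeR).

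**Figure D4:**
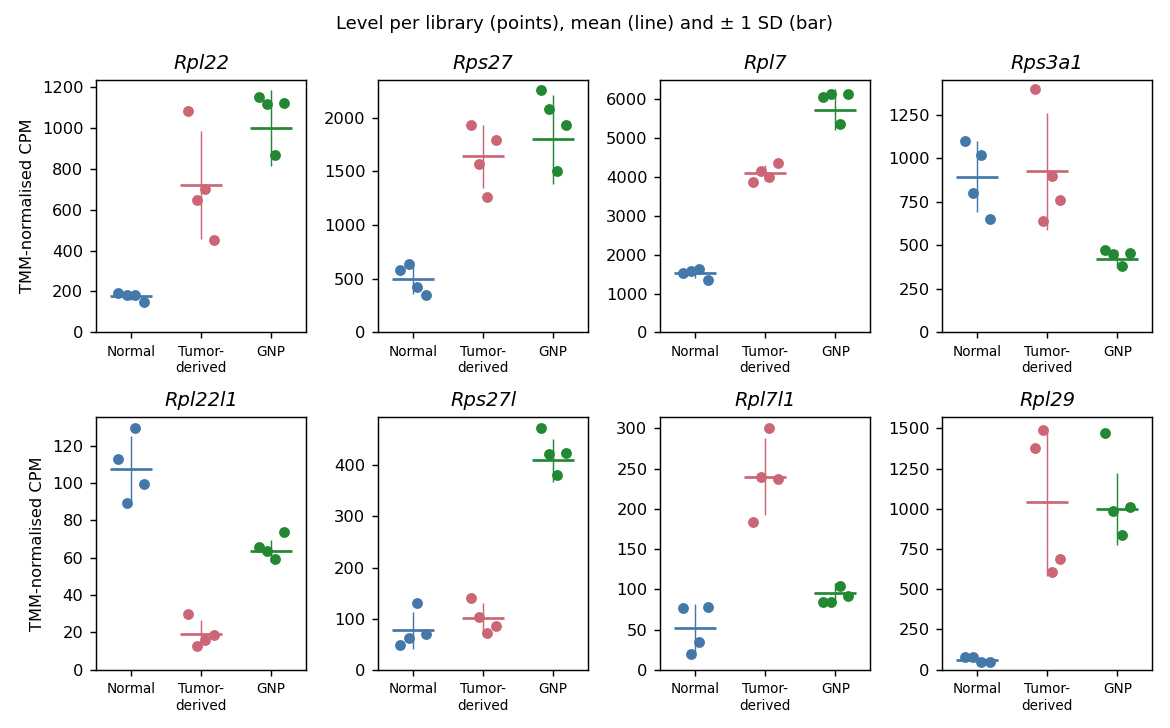
TMM-normalised CPM (vertical axes from 0, different scales) of 8 members in each library (points), with the mean as a line and 1 SD as a bar for the 3 groups, GNP mean and SD taken over the trio mean and library 3 (n = 2). In the pair Rpl22 and Rpl22l1 the normal libraries are lowest for Rpl22, at 147 to 193 CPM, and highest for Rpl22l1, at 89.1 to 129 CPM.

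The pyrimidine element CTTTCC lay near the start of Rps27 and not near that of Rps27l, and near the start of neither Rpl22 nor Rpl22l1. These pairs are shown because a member that rose stands beside a copy that did not, and Rpl13a, Rpl15 and Rpl35 are shown as members that rose and have the element. Each runs from 40 bases before an annotated transcript start through the first 20 transcribed bases, with CTTTCC in capitals where it lies within 15 bases either side of the start, on the transcribed strand. They are RefSeq sequences of GRCm38.p6, from chr3:90213629-90213688 (minus strand) for Rps27, chr9:66946046-66946105 (plus) for Rps27l, chr4:152325686-152325745 (plus) for Rpl22, chr3:28805468-28805527 (plus) for Rpl22l1, chr7:45128726-45128785 (minus) for Rpl13a, chr14:18270967-18271026 (minus) for Rpl15 and chr2:39005112-39005171 (minus) for Rpl35.
Rps27: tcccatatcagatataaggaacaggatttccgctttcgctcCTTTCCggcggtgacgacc
Rps27l: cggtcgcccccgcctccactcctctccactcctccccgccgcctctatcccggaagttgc
Rpl22: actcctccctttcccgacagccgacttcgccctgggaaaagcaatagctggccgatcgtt
Rpl22l1: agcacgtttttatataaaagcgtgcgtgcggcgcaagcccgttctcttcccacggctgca
Rpl13a: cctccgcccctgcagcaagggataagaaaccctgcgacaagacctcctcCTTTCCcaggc
Rpl15: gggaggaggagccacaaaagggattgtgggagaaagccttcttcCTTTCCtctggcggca
Rpl35: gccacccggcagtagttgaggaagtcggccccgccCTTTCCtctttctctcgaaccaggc
Rps27l and Rpl22 each have a second annotated start, not shown. A match is a description of these letters only. Other runs of pyrimidines were not searched for, and Rpl22l1 has such a run, ttctcttccc, beside its annotated start.

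Of the 79 members, 60 had a promoter entry in the RefSeq table. CTTTCC near the start, on the transcribed strand, was in 10 of them (16.7%) and in 1.67% of 27025 genes, while on the opposite strand it was in 0 of 60, against 1.48% of genes. The 9 tested members with the element gave 8 higher in tumor-derived than in normal astrocytes, with a median log2 fold change of 1.77, and the 48 tested members without it gave 40 higher and 1 lower, with a median of 1.56. Over the 300 bases of the promoter entry (both strands, overlapping matches with other motifs allowed), the ETS-family motif CCGGAAG was in 24 members (40%) and 9.93% of genes, the YY1 motif GCCATNTT in 13 (21.7%) and 6.96% of genes, and the TATA motif TATAAA in 6 (10.0%) and 15.7% of genes.

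The symbol rule leaves out 8 cytosolic ribosomal protein genes with other names. Of these, 5 were higher in tumor-derived than in normal astrocytes and 0 lower (edgeR), next to 20.7 and 19.3% of all genes. The counts were 6 and 0 at an unadjusted p under 0.05 (edgeR), and 6 and 0 with DESeq2. The 5 were Rpsa, the stalk proteins Rplp0 and Rplp2, Rps27rt and Fau, which encodes a small-subunit protein fused to a ubiquitin-like one. Rpsa, a small-subunit protein also known as a laminin receptor, had 4980, 6044, 1297 and 2251 CPM in normal libraries 1 to 4 and 24677, 21476, 17459 and 15943 CPM in tumor-derived libraries (log2 2.45 ± 0.38 SE, adjusted p = 0.000278, edgeR). Rplp1 and Rpl36al were among those not called, at log2 0.77 ± 0.42 and 0.07 ± 0.27 (SE). Counts on Rpl and Rps genes are uncertain where processed pseudogenes share their sequence, and the way reads with several matches were counted is not given in the sources used here. The 254 ribosomal protein pseudogenes in the table, 214 of them with a count, took 0.0605 to 0.0753% of counts in normal, 0.170 to 0.298% in tumor-derived and 0.435 to 0.527% in GNP libraries. Per 100 counts on members that was 0.792 to 1.14, 0.764 to 1.32 and 2.15 to 2.24, with overlapping ranges in the astrocyte groups and all GNP libraries above them. A further 17 genes labelled protein-coding have an Rpl or Rps pseudogene name (-ps). They are in none of the members, the 8 genes and the 254 pseudogenes, and their counts were not examined.

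The products of mitochondrial ribosomal protein genes build the separate ribosome of the organelle. Between the astrocyte groups edgeR called these genes no more often than genes at large. Their 77 genes took 0.803 to 0.872% of counts in normal, 0.845 to 1.02% in tumor-derived and 0.956 to 0.969% in GNP libraries. Of the 73 tested, 14 (19.2%) rose and 10 (13.7%) fell from normal to tumor-derived astrocytes, against 20.7 and 19.3% of all genes, with a median log2 fold change of 0.17. With the GNP trio summed the counts were 10 and 6. They were 23 and 10 at an unadjusted p under 0.05 (edgeR), and 21 and 10 with DESeq2. Shares of all genes at those 2 settings were not counted. Against GNPs 9 were higher and 4 lower, next to 7.84 and 4.36% of all genes. Mrpl36 fell by 2.56 ± 0.38 (log2 ± SE, adjusted p = 0.000228, edgeR), while Mrpl52 and Mrpl14 rose by 2.11 ± 0.32 and 1.96 ± 0.33 (adjusted p = 0.000232 and 0.000556).

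Other genes of the translation pathway changed as well, read against 20.7% called higher and 19.3% called lower of all genes between the astrocyte groups. Among 20 further TOP mRNAs, which encode elongation and initiation factors and related proteins, 13 were higher and 0 lower in tumor-derived than in normal astrocytes (edgeR; 13 and 2 at an unadjusted p under 0.05, and 13 and 1 with DESeq2), with a median log2 fold change of 0.88. Eef2, the translocation factor, rose by 2.77 ± 0.27 (adjusted p = 6.78e-06, edgeR), Eef1d, an exchange factor subunit, by 2.31 ± 0.27 (adjusted p = 3.58e-05) and Gnb2l1, the small-subunit scaffold Rack1, by 1.94 ± 0.25 (adjusted p = 7.97e-05). Against GNPs the same list had 2 higher and 7 lower, next to 7.84 and 4.36% of all genes, with a median of -0.62, and GNPs against normal astrocytes gave 13 higher and 0 lower (0 lower also at an unadjusted p under 0.05 and with DESeq2). The RNA polymerase I list, which makes ribosomal RNA, had 8 higher and 1 lower of 19 in tumor-derived against normal astrocytes, led by the subunits Polr1a (log2 3.15 ± 0.42 SE, adjusted p = 9.04e-05, edgeR), Cd3eap (2.36 ± 0.41, adjusted p = 0.000654) and Polr1b (2.32 ± 0.49, adjusted p = 0.00224). Ribosome assembly factors had 24 higher (42.1%) and 2 lower of 57 with a median of 0.80, and 18 higher and 1 lower with the GNP trio summed. Their largest changes were in Fbl, the methyltransferase fibrillarin (3.84 ± 0.25, adjusted p = 4.49e-07), in Nhp2, a core protein of the RNA pseudouridylation complex (2.14 ± 0.25, adjusted p = 2.95e-05), and in the ribosomal protein chaperone Grwd1 (2.11 ± 0.51, adjusted p = 0.00524). Against GNPs the polymerase I list had 2 higher and 1 lower and the assembly list 8 higher and 2 lower.

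Regulators of TOP mRNA translation had 3 higher and 5 lower of 16 in tumor-derived against normal astrocytes, next to 20.7 and 19.3% of all genes, and 2 and 3 with the GNP trio summed. Eif4ebp1, the translation repressor that mTOR phosphorylates, had 3.78, 20.1, 12.3 and 7.12 CPM in normal, 77.7, 240, 216 and 329 CPM in tumor-derived and 222, 255, 172 and 246 CPM in GNP libraries, a log2 rise of 4.32 ± 0.53 over normal astrocytes (SE, adjusted p = 5.09e-05, edgeR). Mtor itself fell by 1.76 ± 0.27 (log2 ± SE, adjusted p = 0.000252), and Tsc1, which restrains it, rose by 1.71 ± 0.30 (adjusted p = 0.000743). Of 9 tested genes of the p53 pathway, which free ribosomal proteins can activate through Mdm2, 1 was higher and 3 were lower, a tally that turned to 2 higher and 1 lower with the trio summed. Bax, a death effector, rose by 1.83 ± 0.34 (adjusted p = 0.00106), while Ccng1, a p53 target, fell by 2.58 ± 0.35 (adjusted p = 0.00011) and Mdm2, the ubiquitin ligase of p53, by 1.04 ± 0.33 (log2 ± SE, adjusted p = 0.0212, or 0.0507 with the trio summed, edgeR).

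The libraries hold the 3′ ends of transcripts. The base content of annotated transcript ends moved with the difference between tumor-derived astrocytes and GNPs. GC content was taken from the last 500 bases of 1 annotated coding transcript per gene, or from all of a shorter one. It ran from 34.4% in Rps20 (transcript of 3706 bases) to 60.8% in Rpl36 (383 bases, so the whole transcript), with a median of 49.3%. Whether these annotated ends are the ends captured here was not tested. In the 25 members of lowest GC the median log2 difference to GNPs was -0.35, with 0 called higher and 5 lower. In the 26 members of highest GC it was 0.17, with 6 higher and 0 lower, and the 25 between them had -0.06, with 3 higher and 1 lower. Among all genes tested 7.84% were called higher and 4.36% lower. Their calls were not split by GC, so these counts do not set the members apart from other genes. Across the 76 members Spearman's rho between GC and the log2 difference was 0.37, and across 12390 of all genes tested 0.40, as a description of points that share the same 12 libraries. For tumor-derived against normal astrocytes the values were 0.38 and 0.21, with median fold changes of 1.31, 1.63 and 1.92 in the low, middle and high GC members. For GNPs against normal astrocytes they were -0.02 and -0.13. The part of GC content in these differences was not tested.

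**Figure D5:**
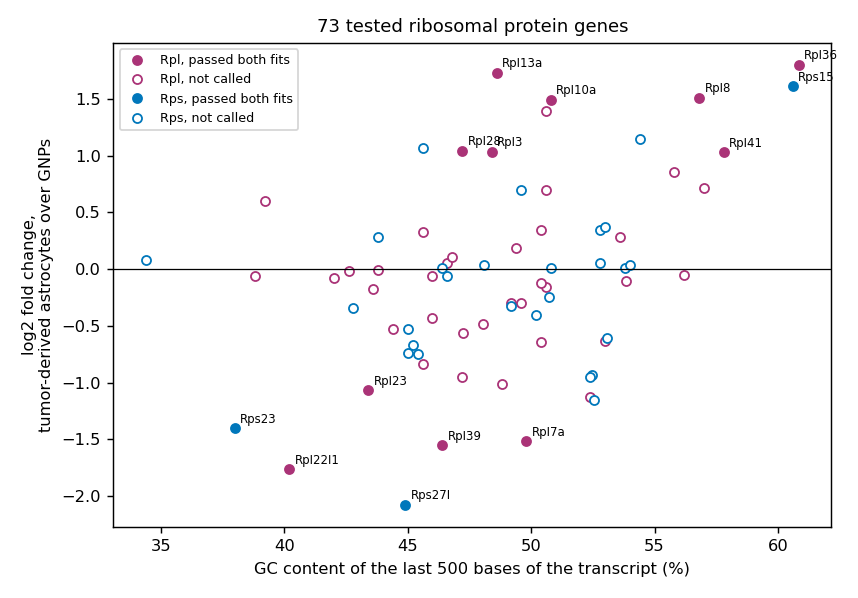
Log2 fold change of tumor-derived astrocytes over tumor GNPs (vertical axis) against GC content of the last 500 transcript bases (%, horizontal axis) for 73 of the 76 tested members, purple for Rpl and blue for Rps genes, filled and named where both fits passed. Transcripts shorter than 500 bases were taken whole. Of the 6 members called lower 5 have a GC of up to 46.4%, and of the 8 drawn and called higher 5 have a GC of 50.7% or more. Among all genes tested 7.84% were called higher and 4.36% lower, not split by GC.

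Members varied between libraries of 1 group by different amounts. The coefficient of variation over the 4 normal libraries ran from 8.73% (Rpl7) to 62.4% (Rps10), with a median of 29.0%, against 25% for 403 tested genes. Those were all genes at or above a level near the bottom of the members' range, so they include most members. Over the 4 tumor-derived libraries the members' coefficient ran from 2.77% (Rpl19) to 62.6% (Rpl18), with a median of 24.0%, against 21.7% for the same 403 genes. Normal libraries 1 and 2 had higher shares of ribosomal protein counts than normal libraries 3 and 4. The numbers in the sample titles fall into the same pairs, and what they stand for is not given in the sources used here.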

How the data were processed

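RNA-seq read counts per gene were analysed in 12 libraries, 4 per cell type. The authors deposited raw counts in 1 table. Per the labels' protocols, cells were laser-captured and cDNA of about 500 bases at transcript 3′ ends was re-amplified and tagmented (Nextera XT). Per the submitters' processing notes, FastQC and STAR were used with mm10. Neither the counter nor its annotation or strand setting is given in the sources used here. Reads of antisense or overlapping genes and of near-identical copies therefore cannot be told apart. Of 47284 lines, 767 repeats of a gene were removed, and 27 symbols stored as dates were restored. The table has 0 columns of other samples.

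edgeR 4.0.16 (R 4.3.3) fitted 3 group means to 14393 genes passing filterByExpr (minimum count 10, minimum total 15) with TMM factors and the robust quasi-likelihood F-test. P-values were Benjamini-Hochberg adjusted over all genes and called at 0.05. The biological coefficient of variation was 66.04% (72.17% with GNP libraries 1, 2 and 4 summed). The script was tested on simulated counts, for tumor-derived against normal astrocytes alone. The simulated spread was smaller than that of these data, and no libraries were near-duplicates. That test does not cover the calls against GNPs. Replicate numbers follow accession order and pair nothing. Named members are the extremes of each comparison, those not called, paralogs and their copies, and the 6 with the highest mean CPM; the counts cover every member, and some genes are not reported by name or drawn here. Members and lists were chosen with earlier results of these data known. Depth limits only low genes: 3 counts, the limit a count of 0 allows, were 0.238 to 0.368 CPM of library totals, counting error only. Alternatives were other scalings, filters, DESeq2 1.42.0, fits of 2 groups and leaving out each library.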

Additional observations from a re-analysis of the deposited data

Results flagged for a closer look

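In groups of 4 libraries, 168 sets of member values and shares in the astrocyte groups were searched for a library far from the other 3 (gap to the nearest over the whole range, by Dixon's critical value). Of these sets 4 were found, a smaller share than the about 1 in 20 that chance gives, and the sets share libraries. All 4 were tumor-derived library 1. It was high for Rpl11 (2510 CPM against 1609 to 1667), Rpl34 (1051 CPM against 475 to 547), Rps23 (841 CPM against 322 to 368) and the small-subunit share of counts (10.5%, against 8.78 to 9.06%). Without that library Rps23 was called lower than in normal astrocytes, at log2 -1.05.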

How the results depend on the processing

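Of 819 values for 39 named members in each comparison, 797 kept direction and call in tumor-derived against normal astrocytes, 725 against GNPs and 792 in GNPs against normal astrocytes. Over fits without 1 library, members called higher and lower were 63 to 67 and 1 to 2 in the first comparison, 0 to 9 and 1 to 13 in the second, and 59 to 66 and 0 to 1 in the third. Where GNP library 3 is left out of the fit with the trio summed, the lone GNP sample is assumed to vary like the other groups. Pool counts ranged from 9 to 13 and 19 to 28, 0 to 7 and 0 to 17, and 2 to 13 and 2 to 11. Median fold changes were 1.54 to 1.79, -0.14 to 0.03 and 1.54 to 1.77, and share differences 13.8 to 14.9, -2.15 to 0.0138 and 14.4 to 16.4 percentage points.

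With library totals alone, 2 members were lower than in normal astrocytes, 4 were higher and 14 lower than in GNPs, and the median against GNPs was -0.45, while the median of all genes moved to -0.21 and -0.32. Calls against GNPs were 15 higher with only the 2 groups fitted, 10 lower with a filter of mean CPM 10, and 14 higher and 15 lower without the second fit, an alternative chosen after seeing the data. GNPs against normal astrocytes had 1 lower without the second fit, with RLE factors, with no filter, with DESeq2 and with 2 groups, and a median of 1.92 with upper quartile factors. With the pool scaled by the median of ratios, 20 gained share over normal astrocytes, 5 were lower than in GNPs, and 15 were lower in GNPs than in normal astrocytes. The share difference to normal astrocytes was 16.1 points with the genes outside the rule. To GNPs it was -0.561 and turned to 0.0234 without the 20 highest other genes and 0.420 with the genes outside the rule. The cause was not tested.

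Reversed single values were all uncalled. With library totals alone they were Rpl17 -0.13, Rpl30 -0.062, Rpl34 -0.17, Rps21 -0.063 and Rps3a1 -0.16 against normal astrocytes, and Rpl24 -0.21, Rps18 -0.038, Rps2 -0.022 and Rps4x -0.38 against GNPs. Against GNPs, Rpl27a was 0.027 with RLE factors and DESeq2, 0.0014 with no filter and 0.0029 with 2 groups, and Rps4x was -0.013 with upper quartile factors and -0.037 with the CPM filter. Fits without 1 library gave -0.27 to 0.20 for Rpl34, -0.19 to 0.22 for Rps3a1, -0.078 to 0.42 for Rps21, -0.00068 to 0.20 for Rpl17 and -0.0043 to 0.39 for Rpl30 against normal astrocytes, -0.27 to 0.15 for Rpl29, -0.088 to 0.15 for Rpl27a and -0.078 to 0.059 for Rps4x against GNPs, and -0.12 to 0.72 for Rpl36 in GNPs against normal astrocytes. No paired analysis was possible because replicate numbers follow accession order.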
